A study of Mus musculus with 45 samples.

Results

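Organoids that received no retinoic acid (RA) were compared at 18 h and 42 h, to follow the default differentiation of mouse embryonic stem cells in matrix. The comparison takes the 3 untreated libraries of 18 h and the 3 untreated libraries of 42 h, 6 of the 45 libraries of the series, and covers every gene of the count table. Both groups were R1 cells, a single mouse embryonic stem cell line, grown clonally in Matrigel in N2B27 medium. They differ in time, counted from day 2, the day on which the treated organoids of the series were given all-trans RA, at 250 nM by the study's methods, while the labels write the same figure in micromolar. The whole series has 15 conditions with 3 replicates each, and the RA-treated organoids of 18 h and 42 h are used here only where the change over time with RA is set beside the change without it. Each library was made from many cells, so that fewer cells of a type and less RNA per cell cannot be told apart in any result given here.

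Embryonic stem cells in medium without serum or self-renewal factors leave the naive state, pass through a state like the epiblast and, when no other signal is supplied, turn into neural plate cells. Naive pluripotency is held by factors such as Esrrb, Klf4, Nr0b1 and Zfp42, while Pou5f1 (Oct4) and Sox2 stay on in the epiblast. Neural plate cells are recognised by Sox1, and their position from forebrain to spinal cord is read from Otx2 and Six3 in front and from the Hox genes behind, whose order along the chromosome follows their order along the body.

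Totals ran from 23250799 to 39688686 counts at 18 h and from 24970955 to 27479990 at 42 h. Levels are given as CPM, the counts of a gene scaled to the size of its library by TMM over all 45 libraries. Replicates of a time differed beyond counting noise in every pair, though 18 h replicates 1 and 3 differed far less than the others. The mean chi-square per gene was 1.97 for that pair. It was 8.90 and 10.3 for the other pairs of 18 h and 5.46 to 12.1 for those of 42 h. Whether 18 h replicates 1 and 3 were as independent as the others was not tested. The Y-linked genes Uty, Kdm5d, Eif2s3y and Ddx3y had a mean of 50.3 to 59 CPM at 18 h and 25 to 34.4 CPM at 42 h, and Xist, the RNA of X inactivation, stood at 70.6 to 122 CPM and then 33.1 to 52.5 CPM (-1.13, called lower, but not without 18 h replicate 2 or 42 h replicate 2). These levels moved with time in the same libraries as every result below, and their part in those results was not tested. The untreated libraries of 30 h stood far apart, with Y genes at 2.58 to 3.29 CPM. So did RA 8 h replicate 3 (3.65 CPM) and RA 30 h replicates 1 and 3 (1.22 and 2.05 CPM). Of the tests given here, these libraries enter only the alternative fit of all 45 libraries.

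Between 18 h and 42 h the organoids gained genes of neural progenitors and of the Hox clusters and lost genes of naive pluripotency and of the germline, while Pou5f1, Nanog and Sox2 moved by less than the fold required for a call. Of 16318 genes tested with edgeR's quasi-likelihood test, 1449 (8.88%) were called, which required a log2 fold change beyond 1 in either direction and an adjusted p under 0.01. At 42 h 803 genes (4.92%) were higher and 646 (3.96%) were lower. Without a threshold on the fold, 8460 genes had an unadjusted p under 0.05, and the median log2 fold change over all genes tested was 0.01. In all 1449 called genes the 3 libraries of one time lay wholly above those of the other, which was so for 54.9% of all genes tested.

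The rises were larger than the falls. A log2 fold change beyond 2 was reached by 174 genes that rose and 54 that fell, and one beyond 3 by 44 and 2. Among genes with a mean of at least 5 CPM, where small counts weigh less, 49 rises and 6 falls went beyond 2, and 10 rises and no fall went beyond 3. The largest fall in that range was -2.53 and the largest rise 4.25.

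**Figure D1:**
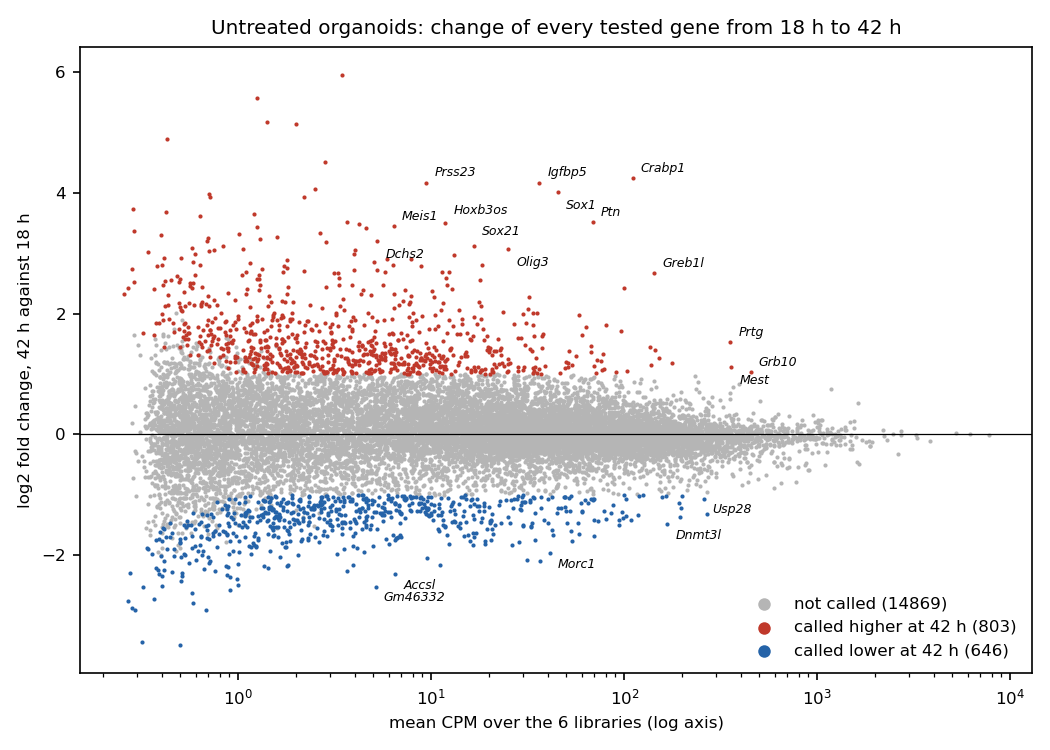
Log2 fold change from 18 h to 42 h (vertical axis) against the mean CPM of the 6 untreated libraries (horizontal axis, log scale), 1 point per tested gene. The 803 genes called higher (red) reach a log2 fold change of 4.25 among genes of at least 5 CPM, and the 646 called lower (blue) reach -2.53.

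Crabp1, a cytoplasmic protein that binds retinoic acid and marks the hindbrain and neural crest, had the largest rise of genes with at least 5 CPM. It read 12.6, 11.1 and 10.3 CPM in the 3 libraries of 18 h and 193, 246 and 190.0 CPM at 42 h, a log2 fold change of 4.25 (SE 0.12, adjusted p = 1.8e-08, edgeR). Igfbp5, a secreted binder of insulin-like growth factors, read 4.2, 3.22 and 4.16 CPM and then 61, 82.4 and 61.9 CPM, a log2 fold change of 4.17. Sox1, the transcription factor that defines the neural plate, read 5.05, 4.99 and 5.98 CPM and then 69.5, 110.0 and 75.8 CPM, a log2 fold change of 4.01 (SE 0.18, adjusted p = 1.1e-07, edgeR). Every 42 h library was far above every 18 h library for these genes, and 42 h replicate 2 was the highest in each.

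The other members of the 10 largest rises were the secreted protease Prss23 (log2 fold change 4.17), the heparin-binding growth factor Ptn (3.51), the long non-coding RNA Hoxb3os (3.51), the Hox cofactor Meis1 (3.45), the large cadherin Dchs2 (3.21), the neural progenitor factor Sox21 (3.12) and Olig3, a factor of the dorsal hindbrain and spinal cord (3.07). Hoxb3os lies opposite Hoxb2 and Hoxb3, and since the strand setting of the counting is not stated, reads of the 3 genes may be shared.

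Among the 10 largest falls, Morc1, which silences transposable elements in male germ cells, read 66.1, 61.8 and 69.4 CPM at 18 h and 16.5, 15.4 and 17.1 CPM at 42 h, a log2 fold change of -1.98 (SE 0.06, adjusted p = 5.5e-08, edgeR). D1Pas1, a testis RNA helicase, read 41.4, 38.4 and 44 CPM and then 10.8, 11.5 and 11.5 CPM (log2 fold change -1.84). The groups of libraries lay far apart for both. The others were the long non-coding RNA Platr7 (-2.04), named for its association with pluripotency, the calcium-binding protein Cpne5 (-2.16), the steroid dehydrogenase Hsd17b14 (-2.10), the Schlafen family member Slfn9 (-2.08), the cell surface peptidase Dpp4 (-1.84), and Gm46332 (-2.53), Accsl (-2.32) and 1700097N02Rik (-1.85).

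Genes that fell held fewer CpG at their starts. In the first 250 bases of the longest coding transcript of each gene, the median number of CpG dinucleotides was 8 for the 502 coding genes that fell, 17 for the 745 that rose and 18 for all coding genes tested. At most 5 CpG were found in 34.5% of coding genes that fell, in 9.93% of those that rose and in 10.1% of all tested. These counts are a description with no test. Upstream sequence from RefSeq was matched by symbol for 66.6% of genes that fell, 68.9% of those that rose and 70.8% of all tested. Since many genes had no match, the sets were not compared over promoters.

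Examples of that upstream sequence are shown for genes at both ends of the change. They are the 250 bases before the start, read on the strand of the gene, of the first 3 genes among the largest rises and among the largest falls that have 1 start in the RefSeq table and whose window lies outside the gene's own annotated span. Capitals mark CpG. Crabp1 (chr9:54764498-54764747, plus strand), Dchs2 (chr3:83127277-83127526, plus strand) and Sox21 (chr14:118237031-118237280, minus strand) rose, with 12, 22 and 17 CpG. Gm46332 (chr12:4569574-4569823, minus strand), Slfn9 (chr11:82991831-82992080, minus strand) and Platr7 (chr10:84553339-84553588, minus strand) fell, with 0, 4 and 0. Positions are on GRCm38.p6. The counts overlap between the largest rises and falls that matched. Among the other rises the same window held 4 CpG for Olig3, 5 for Ptn, 6 for Prss23 and 10 for Igfbp5. It held 13 for Meis1, 16 for Hoxb3os and 29 for Sox1. Among the other falls it held 0 for Accsl, 4 for Dpp4, 10 for 1700097N02Rik, 11 for D1Pas1 and 27 for Cpne5. All 250 bases lay inside the gene's own span for Cpne5 and Hoxb3os, and 224 of them for Sox1. A smaller part did for Ptn, Igfbp5, Meis1 and Olig3. Over all 32851 promoters of the table, 92.1% hold at least one CpG and the median is 6.
Crabp1: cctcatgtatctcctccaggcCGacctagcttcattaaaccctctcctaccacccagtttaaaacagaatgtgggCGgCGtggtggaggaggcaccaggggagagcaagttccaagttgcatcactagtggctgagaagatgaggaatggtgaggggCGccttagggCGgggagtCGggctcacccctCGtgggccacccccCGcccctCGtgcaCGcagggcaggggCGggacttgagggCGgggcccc
Dchs2: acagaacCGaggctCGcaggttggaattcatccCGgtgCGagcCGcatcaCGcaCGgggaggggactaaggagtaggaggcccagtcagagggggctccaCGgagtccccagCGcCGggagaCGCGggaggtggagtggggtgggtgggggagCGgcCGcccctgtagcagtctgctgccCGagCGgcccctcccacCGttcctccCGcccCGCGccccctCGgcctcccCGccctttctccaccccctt
Sox21: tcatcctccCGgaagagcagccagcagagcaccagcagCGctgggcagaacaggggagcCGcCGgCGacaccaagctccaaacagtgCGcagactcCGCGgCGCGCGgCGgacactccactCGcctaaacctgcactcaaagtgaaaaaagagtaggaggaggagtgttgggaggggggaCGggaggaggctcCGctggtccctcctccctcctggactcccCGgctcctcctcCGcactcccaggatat
Gm46332: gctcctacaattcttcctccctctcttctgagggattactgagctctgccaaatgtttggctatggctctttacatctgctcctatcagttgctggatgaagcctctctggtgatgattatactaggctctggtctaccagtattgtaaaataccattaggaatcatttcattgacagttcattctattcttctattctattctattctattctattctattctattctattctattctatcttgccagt
Slfn9: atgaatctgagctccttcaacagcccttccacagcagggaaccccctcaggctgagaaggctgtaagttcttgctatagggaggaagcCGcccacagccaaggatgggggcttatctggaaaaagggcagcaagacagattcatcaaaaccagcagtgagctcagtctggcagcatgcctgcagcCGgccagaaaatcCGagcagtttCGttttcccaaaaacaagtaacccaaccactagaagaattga
Platr7: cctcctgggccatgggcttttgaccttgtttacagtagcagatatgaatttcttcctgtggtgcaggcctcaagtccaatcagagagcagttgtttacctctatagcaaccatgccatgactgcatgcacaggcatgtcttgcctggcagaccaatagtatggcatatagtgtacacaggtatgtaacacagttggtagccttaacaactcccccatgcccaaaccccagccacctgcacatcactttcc

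By the size of the change in CPM, the gains were led by Prtg, an immunoglobulin superfamily receptor of the early neural tube, which went from 184 ± 10.6 to 521 ± 78.6 CPM (SD, n = 3). Greb1l, needed in kidney development, went from 39.7 ± 3.19 to 246 ± 54.5 CPM (SD, n = 3). The imprinted genes Grb10 and Mest, and Crabp1, completed the 5 largest gains. The losses were led by Tdh, the threonine dehydrogenase on which mouse embryonic stem cells depend, which went from 386 ± 18.7 to 150.4 ± 7.72 CPM (SD, n = 3). Lncenc1, a long non-coding RNA of naive cells, went from 281 ± 5.77 to 106 ± 5.59 CPM (SD, n = 3), and the others were Usp28, Dnmt3l and Upp1, a uridine phosphorylase. Grb10 (log2 fold change 1.03) was not called without 18 h replicate 2, nor Mest (1.11) without 42 h replicate 2.

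Gene lists are described by the count of their members that were called and by their median, beside 4.92% higher, 3.96% lower and a median of 0.01 over all genes tested. The values in parentheses after gene names are log2 fold changes.

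**Figure D2:**
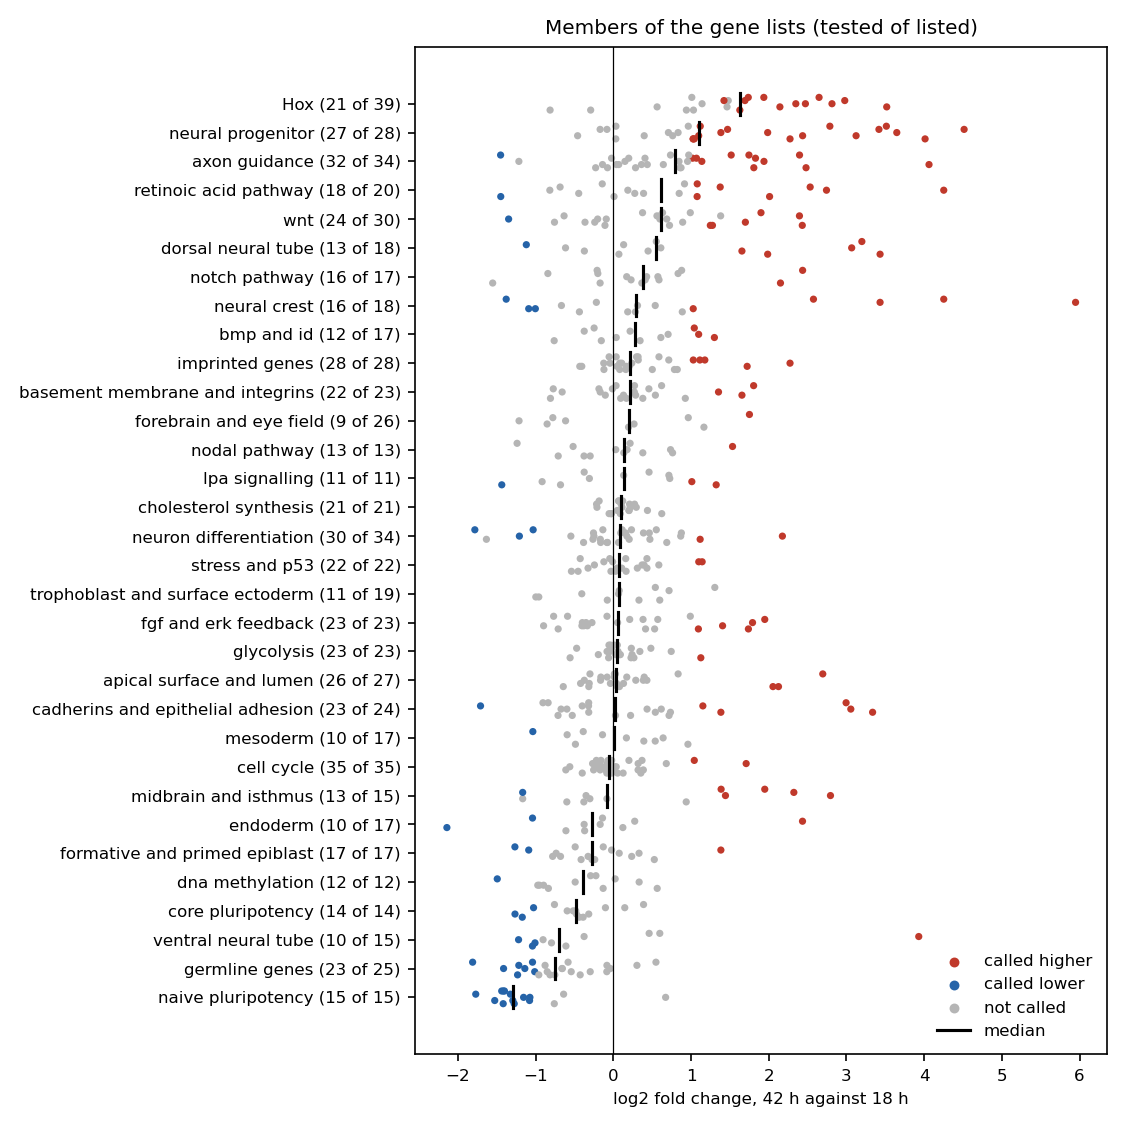
Log2 fold change from 18 h to 42 h (horizontal axis) of every tested member of each gene list (rows), ordered by the list's median, which is drawn as a black bar. Naive pluripotency has a median of -1.29 and the Hox genes one of 1.63, against 0.01 over all genes tested.

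Naive pluripotency genes fell nearly together. Of 15 listed, all passed the filter on low counts and 12 fell, with a median log2 fold change of -1.29, while 14 of 15 were below 0. The largest fall of the list was that of Nr0b1 (-1.77), which encodes Dax1, followed by Nr5a2 (-1.53) and Dppa3 (-1.44). Zfp42 (Rex1), the standard marker of naive cells, read 161, 146 and 169 CPM at 18 h and 60.9, 52.4 and 61.2 CPM at 42 h, a log2 fold change of -1.42 (SE 0.07, adjusted p = 2.0e-07, edgeR). Esrrb, an orphan nuclear receptor, read 125, 102 and 123 CPM and then 45.1, 36.9 and 47.3 CPM (-1.40). No library of 42 h reached the 18 h range for any of these. Klf5 (-0.64), Tfcp2l1 (-0.76) and Gbx2, which also marks the anterior hindbrain, were not called. Gbx2 stood at 43.5 to 47 CPM and then 58.1 to 83.3 CPM (0.67), the only member above 0. Prdm14 (-1.07) was not called without 18 h replicate 1 or without 42 h replicate 2.

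The core factors moved less. Of 14 genes, 3 fell, Dppa2 (-1.27), Dppa4 (-1.17) and Mybl2 (-1.03, not called without 42 h replicate 2), and the median was -0.48. Pou5f1 read 755, 764 and 787 CPM at 18 h and 600.2, 530.0 and 589.7 CPM at 42 h, a log2 fold change of -0.39 (SE 0.06, adjusted p = 2.7e-04, edgeR), below the fold required for a call. Nanog stood at 110.2 to 130.0 CPM and then 93.9 to 97 CPM (-0.32), and Sox2, which neural cells also use, at 309.7 to 332 CPM and then 215 to 224 CPM (-0.52). Each of them was lower in every 42 h library than in any 18 h library. Lin28a, a blocker of let-7 processing, stood at 978 to 1009.9 CPM and then 1029.6 to 1119 CPM.

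Genes of the formative and primed epiblast did not move as one. Of 17 tested, 2 fell, Grhl2, an epithelial transcription factor (-1.27), and Foxd3 (-1.09), and 1 rose, Cdh2 (1.38). Fgf5, the epiblast marker, stood at 63.6 to 64.8 CPM at 18 h and 40.8 to 58.2 CPM at 42 h (log2 fold change -0.27, adjusted p = 0.057, edgeR), while Otx2 went from 249 ± 15.3 to 141 ± 20.9 CPM (SD, n = 3), at -0.78 below the fold required. In the Nodal pathway, which keeps the epiblast from turning neural, the ligand Nodal stood at 55.7 to 70.2 CPM and then 36.7 to 39.8 CPM (-0.71), its co-receptor Tdgf1 at -0.52 and its inhibitor Lefty2 at 0.74, and none of these was called. Without 42 h replicate 1, 1 of the 13 members of the pathway was called lower.

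Genes of DNA methylation leaned downward, with 9 of 12 below 0 and a median of -0.39. Dnmt3l, the catalytically inactive partner of the de novo methyltransferases, fell from 258, 226 and 260.3 CPM to 79, 85.3 and 93.5 CPM, a log2 fold change of -1.49 (SE 0.07, adjusted p = 1.6e-07, edgeR). It was the only member called, and 2 were called without 42 h replicate 1. Dnmt3a stood at 726 to 819 CPM and then 391 to 434 CPM (-0.90), the oxidase Tet2 at -0.95 and the imprint guardian Zfp57 at -0.97, each close to the fold required. The maintenance enzyme Dnmt1 stood at -0.13, with overlapping groups.

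Germline genes gave falls and no rise. Of 25 listed, 23 passed the filter, 7 fell and 21 were below 0, with a median of -0.75. Rpl10l, a testis copy of a ribosomal protein, read 28.5, 28.4 and 32.4 CPM and then 8.21, 7.61 and 9.05 CPM, a log2 fold change of -1.81 (SE 0.09, adjusted p = 1.6e-07, edgeR). Hormad1, of the meiotic chromosome axis (-1.41), the RNA-binding protein Dazl (-1.23) and Tex19.1 (-1.14) were also called. Sycp1, Prdm1 and Taf7l completed the 7, and each lost its call without at least one library, so that 5 to 7 were called when libraries were left out in turn. The helicase Ddx4 stood at 39.8 to 41 CPM and then 35.9 to 38.3 CPM (-0.08), not called. No member was called higher by edgeR or DESeq2, and 1 had an unadjusted p under 0.05 with a positive change.

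Few genes of families used by every cell were called lower, and the counts are too small to set apart from the 3.96% of all genes tested. Of 79 genes of ribosomal proteins tested, 2 fell, Rpl10l and Rpl39l (-1.37). Of 38 proteasome subunits, 1 fell, Psma8 (-1.25, from 18.5 to 7.61 CPM in the means), and of 76 subunits of the mitochondrial complexes, 1 fell, Cox7b2 (-2.04), whose call held only without 42 h replicate 2 and was lost without any one of the other libraries. The members called lower are copies known from testis, and the medians of the 3 groups were -0.01, -0.04 and -0.07. The mitochondrial group leaned downward by small amounts, with 55 of 76 below 0. At an unadjusted p under 0.05 (edgeR), 22 were lower and 0 higher. Its listed genes summed to 9655 to 9722 CPM at 18 h and 8600 to 8690 CPM at 42 h.

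Processed pseudogenes and long intergenic RNAs also fell more often than they rose. Of 548 processed pseudogenes tested, 34 fell and 1 rose, and of 435 lincRNAs, 53 fell and 15 rose, while of 14022 coding genes 502 fell and 745 rose. Pseudogenes share sequence with their parent genes, and how the counting treated such reads is not stated.

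**Figure D3:**
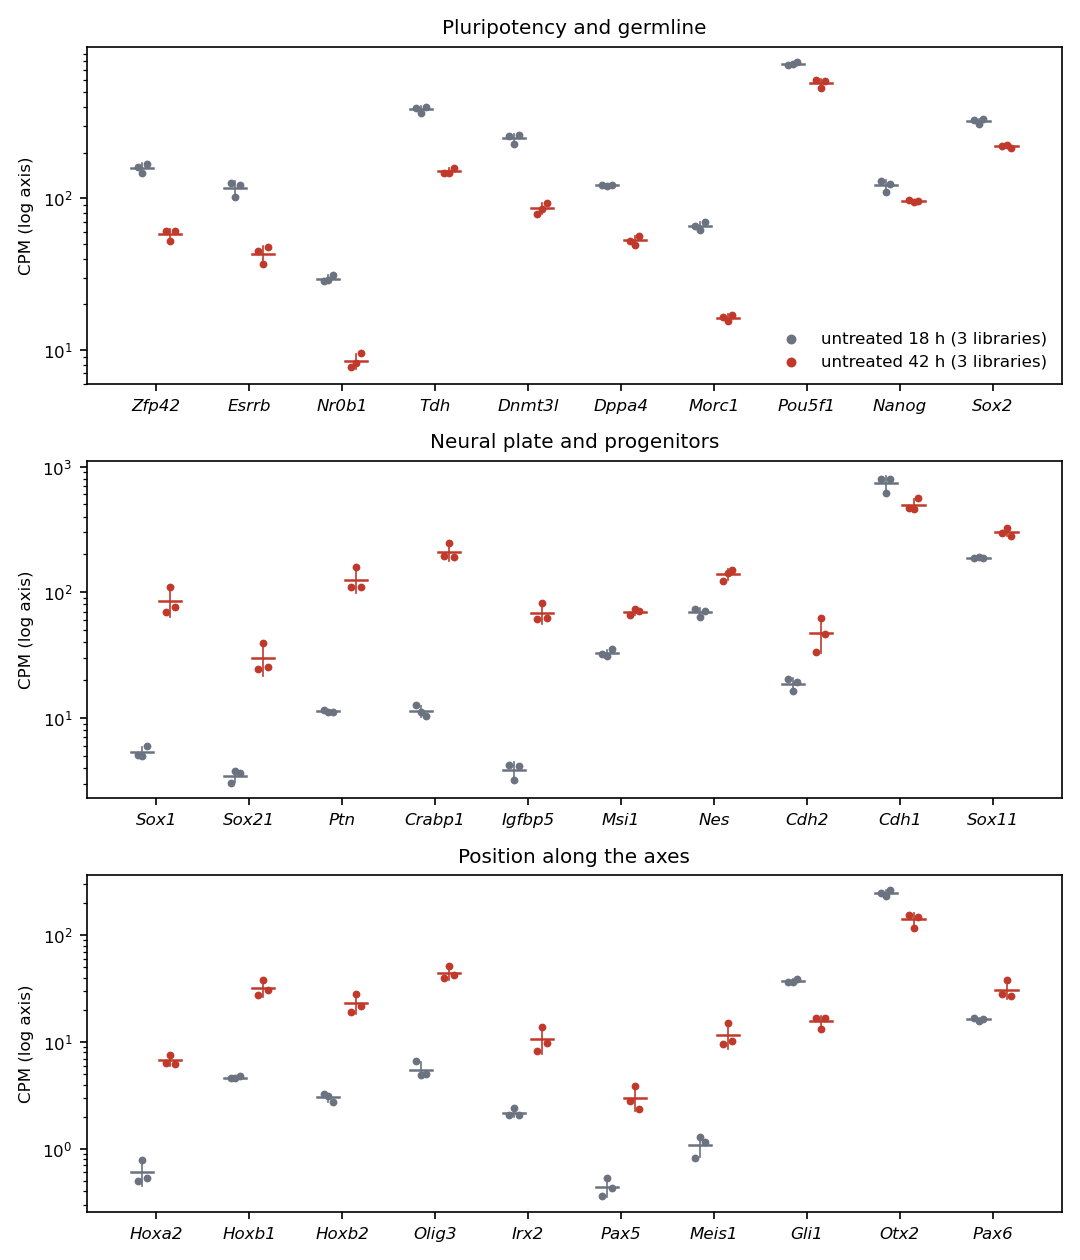
CPM (log axis) of 30 genes in each untreated library of 18 h and 42 h, in 3 panels by role, with the mean and 1 SD (n = 3). Zfp42 lies at 146 to 169 CPM and then at 52.4 to 61.2 CPM, and Sox1 at 4.99 to 5.98 CPM and then at 69.5 to 110.0 CPM.

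Neural progenitor genes were the list with the most rises. Of 28 listed, 27 passed the filter and 17 rose, with a median log2 fold change of 1.10, and 15 to 18 were called when single libraries were left out. Sox21 read 3.02, 3.75 and 3.63 CPM at 18 h and 24.6, 39.2 and 25.4 CPM at 42 h (3.12). Ptn read 11.6, 11.2 and 11.2 CPM and then 111, 158 and 109.8 CPM (3.51, SE 0.14, adjusted p = 6.4e-08, edgeR). Fabp7, the fatty acid carrier of radial glia (2.79), the Notch effector Hes5 (2.44), its relative Hes3 (3.42) and the RNA-binding protein Msi1 (1.12) were called. Each had its 42 h libraries clear of its 18 h libraries. The nuclear receptors Nr2f1 and Nr2f2, which act in the hindbrain and forebrain, rose from no more than 0.248 and 0.293 CPM to 1.88 to 2.59 and 4.79 to 6.47 CPM. The filament protein Nes, at 63 to 73.1 CPM and then 123 to 151 CPM, was called at 1.04 and lost the call without 18 h replicate 2 or without 42 h replicate 3. Ptprz1 was not called without 18 h replicate 1 or 42 h replicate 2, nor Sox9 without 18 h replicate 3, 42 h replicate 2 or 42 h replicate 3.

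Others of the list were not called. The filament protein Vim stood at 83.1 to 97.4 CPM and then 77 to 105 CPM, with overlapping groups. Sox4 stood at 141 to 156 CPM and then 132 to 139.5 CPM. Pax6, a factor of the eye field and neural tube, stood at 15.8 to 16.7 CPM and then 27.3 to 37.9 CPM (0.96, adjusted p = 6.1e-05, edgeR), just short of the fold required, and Sox11 at 186 to 192 CPM and then 281 to 323 CPM (0.71). No member was called lower by edgeR or DESeq2, and 0 had an unadjusted p under 0.05 with a negative change.

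In the Notch pathway 2 of 16 genes tested were called, Hes5 and the coactivator Maml3 (2.15), and 1 more was called lower without 18 h replicate 2. Dll1, the main ligand of neuronal precursors, stood at 41.5 to 44.4 CPM and then 21.2 to 25.9 CPM (-0.84, not called), and Notch3 at 0.57.

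Genes of differentiating neurons did not rise as a group. Of 34 listed, 30 passed the filter, 2 rose and 3 fell, with a median of 0.08. The neurofilament genes Nefm (2.18) and Nefl (1.12), which overlap on opposite strands, rose. Gadd45g, at 43.8 to 46 CPM and then 11.7 to 13.1 CPM (-1.78, SE 0.07, adjusted p = 5.5e-08, edgeR), the proneural factor Neurod1 (-1.21) and Insm1 (-1.03) fell. Insm1 was not called without 18 h replicate 2 or without 42 h replicate 1. The neuronal tubulin Tubb3 stood at 64.9 to 73 CPM and then 54.9 to 62.5 CPM, and Dcx, which marks young neurons, at 0.827 to 1.2 CPM and then 1.18 to 2.21 CPM. A set of 4 neuron markers, these 2 with Elavl3 and Stmn2, summed to 172 to 176 CPM and then 214 to 249 CPM. None of the 4 was called, while 2 were higher and 1 lower at an unadjusted p under 0.05 (edgeR).

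Hox genes rose in 3 of the 4 clusters. Of 39 Hox genes, 21 passed the filter, 12 rose and 19 were above 0, with a median log2 fold change of 1.63, and 11 to 13 were called when libraries were left out. The other 18 stayed under 0.69 CPM in all 6 libraries. The largest change was that of Hoxa2, a gene of the hindbrain, at 0.496, 0.784 and 0.533 CPM and then 6.36, 7.64 and 6.2 CPM (3.52, SE 0.21, adjusted p = 4.9e-07, edgeR). Hoxb2 read 3.25, 3.09 and 2.75 CPM and then 19, 28.3 and 21.9 CPM (2.98). Hoxb1, the gene of rhombomere 4, read 4.56, 4.62 and 4.77 CPM and then 27.3, 38 and 30.7 CPM (2.81, SE 0.13, adjusted p = 1.2e-07, edgeR). The groups lay far apart for each of the 3 genes. Hoxb3 (2.65), Hoxa3 (2.47) and Hoxa5 (1.74) rose as well.

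Hox genes of more posterior parts of the body were among the rises. Hoxb9, of the trunk, read 3.38, 2.6 and 3.68 CPM and then 8.6, 12.8 and 15 CPM (1.94), and Hoxb8 stood at 0.907 to 1.22 CPM and then 3.21 to 3.46 CPM (1.69), while Hoxb5, which lies between them and Hoxb1, was too low to be tested. Hoxc6 rose from 0.213 to 0.406 CPM to 1.22 to 1.65 CPM (2.35). Hoxc4 and Hoxc8 were called too, Hoxc4 not without 18 h replicate 3 or 42 h replicate 3 and Hoxc8 not without 18 h replicate 1 or 42 h replicate 2. No gene of the Hoxd cluster was called by edgeR, where Hoxd1 (1.01, adjusted p = 0.049, edgeR) and Hoxd13 (-0.81, adjusted p = 0.015, edgeR) were tested. No Hox gene was called lower by edgeR or DESeq2, which called 12 higher, and 1 had an unadjusted p under 0.05 with a negative change.

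**Figure D4:**
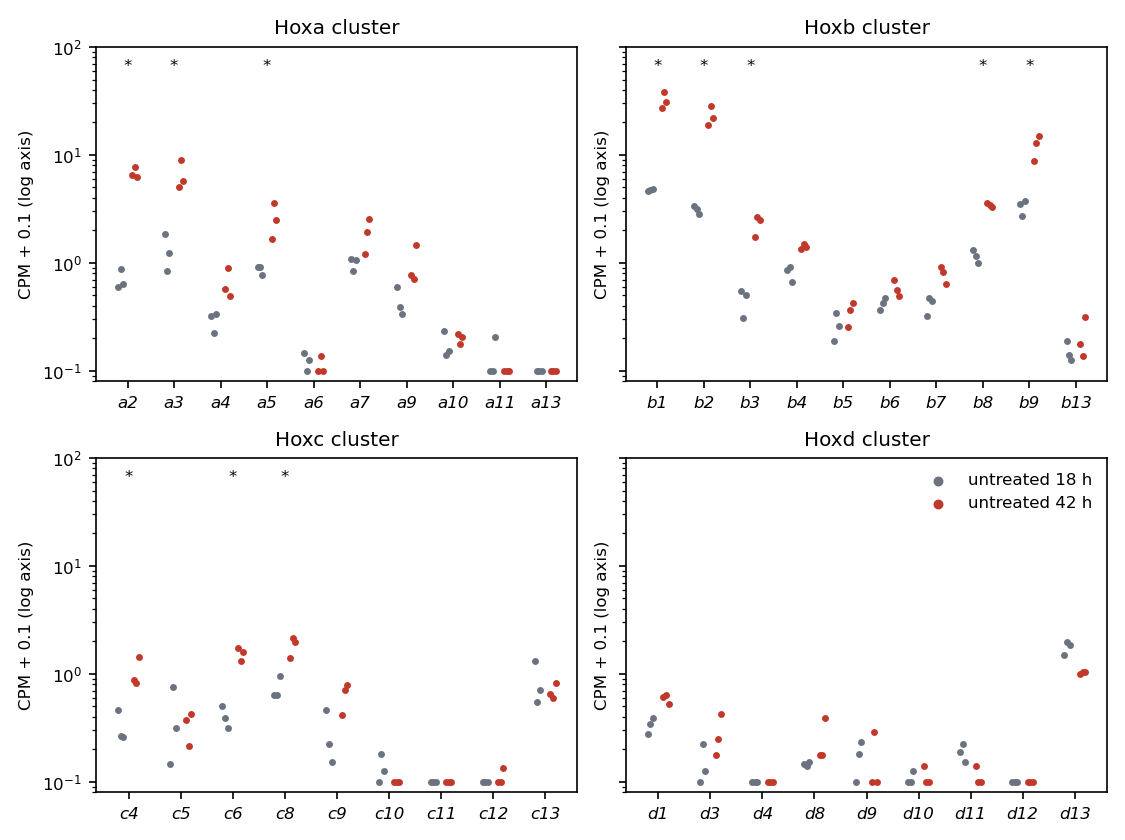
CPM plus 0.1 (log axis) of 38 of the 39 Hox genes in the 6 untreated libraries, 1 panel per cluster and 1 point per library, with an asterisk over the 11 of them called higher at 42 h. Hoxb1 and Hoxb2 stand at 27.3 to 38 and 19 to 28.3 CPM at 42 h, and Hoxd13, the highest of the Hoxd genes tested, at 0.904 to 0.951 CPM.

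Most genes of the forebrain and eye field were too low to be tested. Of 26 genes of the forebrain and eye field, 17 did not pass the filter, among them Six3 and Rax, and none of the 17 exceeded 0.64 CPM in any of the 6 libraries. Of the 9 tested, 1 rose, Sp8 (1.75), at 8.37 to 9.21 CPM and then 23.2 to 34.8 CPM, and 2 were called without 42 h replicate 1 or without 42 h replicate 3. Lhx2 stood at 0.614 to 1.13 CPM and then 0.786 to 1.14 CPM, with overlapping groups. The tested and untested genes of the list summed to 69.4 to 71.6 CPM and then 81.3 to 102 CPM. A set of 5 anterior neural markers that includes Otx2 summed to 235 to 266 CPM and then 119 to 158 CPM.

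Genes of the midbrain, isthmus and anterior hindbrain split. Of 15 listed, 13 were tested, 5 rose and 1 fell. Pax5, a factor of the isthmus (2.79), the Iroquois factors Irx2 (2.32) and Irx3 (1.39), the isthmus ligand Fgf8 (1.95, at 0.33 to 0.812 CPM and then 1.53 to 3.27 CPM) and Wnt8a rose. Wnt8a, a ligand of the posterior neural plate and primitive streak, read 82.8, 74.8 and 67 CPM and then 182, 217 and 196 CPM (1.44, SE 0.09, adjusted p = 5.2e-07, edgeR), without overlap. Pax8 fell (-1.17), and En2 stood at -0.60 and Pax2 at -1.17, neither of them called.

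Dorsal and ventral genes of the neural tube each gave rises and falls. Of 18 dorsal genes, 13 were tested and 5 rose. They were Olig3, at 6.59, 4.91 and 5.07 CPM and then 39.6, 51.9 and 42.6 CPM, and Pax3, Msx3, Zic1 and Pax7 at 42 h levels of at most 6.58 CPM, Pax7 not called without 18 h replicate 3. Gsx1, of the dorsal interneuron domain, was called lower (-1.12), a call lost without any one of 18 h replicates 2 and 3 and 42 h replicates 1 and 3. Of 15 ventral genes, 10 were tested. Gli1, a transcriptional target of Sonic hedgehog signalling, read 36.5, 36.9 and 39 CPM and then 16.9, 13.4 and 16.8 CPM (-1.22, SE 0.09, adjusted p = 1.6e-06, edgeR). Ptch1 (-1.04), the receptor, was also called lower, but not without 42 h replicate 2, which left 1 of the 3 ventral genes called lower. Hhip, another target of the pathway, stood at 2.13 to 2.98 CPM and then 1.59 to 2.09 CPM (-0.38, not called). Shh itself stayed at or under 0.0786 CPM in all 6 libraries. Nkx6-1 was called higher, at no more than 0.165 CPM at 18 h and 0.943 to 1.6 CPM at 42 h.

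Genes of neural crest gave rises and falls. Of 18 genes of the list 16 were tested, 5 rose and 3 fell. Ednrb (2.58), Crabp1, Pax3 and Sox9 were among the rises. Tfap2a (-1.38), Foxd3 (-1.09) and Ngfr fell, the last not called without 18 h replicates 1 or 3 or 42 h replicate 2, and the defining markers Sox10 and Snai2 stayed at no more than 0.668 and 0.902 CPM.

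Genes of the retinoid pathway changed although no RA was added. Of 20 listed, 18 were tested, 7 rose and 1 fell. The binding proteins Crabp1 and Crabp2 (1.38), the retinol receptor Stra6 (2.01), the nuclear receptor Rxra (1.08) and the RA-degrading enzyme Cyp26b1 (2.74) rose. Crabp2 read 27.9, 29.9 and 29.5 CPM and then 68.9, 85.7 and 67 CPM, with the groups far apart. The RA-synthesising enzyme Aldh1a2 fell from 2.39 to 3.25 CPM to 0.875 to 1.08 CPM (-1.45), and without 18 h replicate 3 a further member was called lower, 2 in all. The receptor gene Rarb, itself induced by RA, stood at 0.66 to 0.993 CPM and then 0.685 to 1.03 CPM, and Cyp26a1, the other classical target, at 2.26 to 3.09 CPM and then 2.96 to 3.5 CPM. The groups overlapped for both. Dhrs3 (1.08) was not called without 18 h replicate 1, and Cyp26c1, at no more than 0.226 CPM at 18 h and 0.685 to 1.02 CPM at 42 h, was the last of the 7.

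Wnt signalling genes included secreted inhibitors among the rises. Of 30 listed, 24 were tested, 6 rose and 1 fell. Sfrp1, a secreted Wnt antagonist, read 32.8, 29 and 33.3 CPM and then 141, 204 and 156 CPM (2.43, SE 0.12, adjusted p = 2.0e-07, edgeR). Frzb, another one, rose by 2.40, the ligand Wnt3 by 1.90 and the feedback inhibitor Nkd1 by 1.70 on the log2 scale. Sp5 (1.28) and Wnt4 (1.25, not called without 18 h replicate 3) were the others. Notum, an enzyme that inactivates Wnt ligands, fell (-1.35). The general target Axin2 stood at 19.3 to 25.1 CPM and then 34.4 to 37.5 CPM (0.72, not called).

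In the FGF pathway 5 of 23 genes rose, the ligands Fgf8 and Fgf15 (1.09), the receptor Fgfr3 (1.74), the binding protein Fgfbp3 (1.79) and the inhibitor Il17rd (1.41). Fgf4, the autocrine ligand of stem cells, stood at 198 to 224 CPM and then 95.4 to 122 CPM (-0.90, not called), and readouts of ERK activity stood at -0.77 for Spry4 and 0.05 for Dusp6. No gene of the list was called lower by edgeR or DESeq2, while 8 had an unadjusted p under 0.05 and a negative change. Among 12 genes of BMP signalling tested, the inhibitor Fst (1.30) and the ligand Bmp7 (1.10) rose and Id2 (1.04) was called but not without 18 h replicate 3 or 42 h replicate 2. Id1 and Id3, direct readouts of the pathway, stood at -0.37 and -0.15.

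Cadherins differed in their change. Cdh2 (N-cadherin) read 20.4, 16.2 and 19.4 CPM and then 33.2, 62.7 and 46.8 CPM, a log2 fold change of 1.38 (SE 0.19, adjusted p = 1.3e-04, edgeR), with a wide spread at 42 h. Cdh1 (E-cadherin) read 793, 617 and 793 CPM and then 466, 462 and 560.5 CPM (-0.53), not called. Cdh6 (3.00), Cdh11 (3.34) and Cdh4 (1.15) rose, as did Cdh20, from no more than 0.361 CPM to 1.22 to 1.48 CPM. Of 23 genes of epithelial adhesion tested, these 5 rose and 1 fell, the claudin Cldn5 (-1.71), with the epithelial splicing factor Esrp1 at -0.91 and Epcam at -0.40.

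Genes of the apical surface, where the lumen of the organoid lies, stayed near their level. Of 26 tested, 3 rose, the apical polarity genes Crb2 (2.05) and Crb1 (2.70) and the myosin light chain Myl9 (2.13), with a list median of 0.03. Crb2 read 5.73, 3.51 and 4.16 CPM and then 15.8, 21.4 and 16.5 CPM. The junction protein Tjp1 (ZO-1) stood at 268 to 305 CPM and then 275 to 312 CPM, and the lumen protein Podxl at 239 to 282 CPM and then 186 to 219 CPM (-0.37). Rock1, a kinase of actomyosin contraction, stood at 118 to 148 CPM and then 98.3 to 147 CPM, and its relative Rock2 at 143 to 168 CPM and then 111 to 162 CPM. The groups overlapped for Tjp1, Rock1 and Rock2, and not for Podxl, and none of them was called.

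Enpp2 encodes autotaxin, the enzyme that makes lysophosphatidic acid (LPA). It read 25.9, 26.2 and 29.4 CPM at 18 h and 15.3, 17.6 and 16.8 CPM at 42 h, a log2 fold change of -0.68 (SE 0.08, adjusted p = 4.5e-05, edgeR), without overlap but below the fold required. In the list of 11 genes drawn up for LPA signalling, the receptor Lpar5 (-1.44) fell. The lipase Lipg (1.32), neither a receptor of LPA nor autotaxin, rose. The receptor Lpar6 was called at 1.01 and lost that call without any one of 18 h replicates 1 and 3 and 42 h replicates 1 and 2. Lpar1 stood at 22 to 23.2 CPM and then 11.2 to 12.1 CPM (-0.92, not called).

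Basement membrane genes gave 3 rises among 22 tested, the collagen IV chains Col4a2 (1.66) and Col4a5 (1.35) and Fras1 (1.81), which read 18.1, 13 and 14.8 CPM and then 43.8, 58.3 and 54.1 CPM. Fibronectin, Fn1, stood at 641 to 938 CPM and then 396 to 525 CPM (-0.81), not called. The laminin chains Lama5 (0.04), Lamb1 (0.09) and Lamc1 (0.13) had overlapping groups.

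Receptors and ligands of axon guidance, which also set tissue boundaries, gave 11 rises and 1 fall among 32 tested, with a median of 0.79, and 8 to 11 were called higher when libraries were left out. Epha4, which is patterned by rhombomere, read 40.4, 31.2 and 37.3 CPM and then 104, 148 and 120.2 CPM (1.81, SE 0.12, adjusted p = 9.9e-07, edgeR). Efnb1 (2.48), Epha7 (1.94), Plxna2 (1.83), Efna5 (1.75) and Robo2, at 0.248 to 0.316 CPM and then 3.54 to 6.28 CPM, were among the rises. The semaphorin receptor Plxna4 fell (-1.45).

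Imprinted genes rose in 5 of 28 cases. Plagl1, a zinc finger factor linked to a network of imprinted genes, read 2.89, 4.17 and 3.68 CPM and then 14.4, 21.1 and 15.5 CPM (2.27), and Igf2 (1.72) and Nnat (1.18) rose beside Grb10 and Mest. Meg3 and Rian, of the Dlk1 locus, stood at 0.24 and 0.32.

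Growth and metabolism genes moved little. Among 35 cell cycle genes 2 were called, Ccnd2 (1.71), a D-type cyclin, at 41.5 to 49.2 CPM and then 129 to 165 CPM, and Id2, which was not called without 18 h replicate 3 or 42 h replicate 2. The list's median was -0.05, with Mki67 at 433 to 471 CPM and then 423 to 489 CPM and Mycn at -0.61. Of 23 genes of glycolysis, the hypoxia target Vegfa rose (1.13) and the median was 0.05. None of 21 genes of cholesterol synthesis was called by edgeR or DESeq2, with 8 higher and 3 lower at an unadjusted p under 0.05 and changes between -0.22 and 0.62. Of 22 stress and p53 genes, Jun (1.10) and Atf3 (1.14, not called without 42 h replicate 3) rose, and Trp53 stood at -0.45.

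Other lineages were scarce. Of 17 mesoderm genes 10 were tested, and T (Brachyury), of the primitive streak, stood at 1.4 to 2.67 CPM and then 2.55 to 5.32 CPM (0.96, adjusted p = 0.021, edgeR). The only call of the list, Tal1 (-1.04), was lost without any one of 18 h replicates 1 and 3 and 42 h replicates 1 and 2, and 1 gene was called higher without 42 h replicate 1. The summed level of the 6 mesoderm markers was 10.4 to 13.6 CPM and then 12.2 to 16 CPM. Of 17 endoderm genes 10 were tested, 2 were called lower and 1, Cxcr4 (2.43), higher. The 2 calls lower were Cubn, not called without 18 h replicate 3 or 42 h replicate 2, and Prdm1, not called without 18 h replicates 1 or 3 or 42 h replicate 1. The defining markers Sox17 and Gata6 stayed at no more than 0.288 and 0.541 CPM, and the 6 endoderm markers summed to 2.85 to 3.34 CPM and then 2.67 to 2.93 CPM.

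Of 19 genes of trophoblast and surface ectoderm, 11 were tested and none was called by edgeR. DESeq2 called 1 lower, and 4 higher and 2 lower had an unadjusted p under 0.05. Without 42 h replicate 3, edgeR called 2 lower, and without 18 h replicate 2 or 42 h replicate 1 it called 1. Among fibroblast markers Col3a1 stayed at or under 0.157 CPM, while Col1a1 rose from 0.767 to 1.73 CPM to 3.18 to 4.94 CPM and Col1a2 from 1.52 to 1.8 CPM to 4.52 to 7.61 CPM.

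With RA many genes changed differently over the same interval. The change from 18 h to 42 h was compared between RA-treated and untreated organoids as an interaction over 12 libraries, the RA change minus the untreated change on the log2 scale. Of 17496 genes tested, 897 (5.13%) were called, 268 (1.53%) above 1 and 629 (3.6%) below -1. Of 28 Hox genes tested, 13 were below -1 and 1 above, and the neural progenitor list gave 3 below and 4 above of 28. Among genes of naive pluripotency 1 of 15 was below.

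Hoxb1, which rose without RA, went the other way with RA, from 165 to 172 CPM at 18 h to 54.4 to 62.6 CPM at 42 h, an interaction of -4.29 (SE 0.14, adjusted p = 7.4e-11, edgeR). Nkx1-2, a factor of the caudal epiblast where trunk neural cells arise, read 31, 28.8 and 29.4 CPM and then 84.8, 101 and 86.8 CPM without RA, and 25.4 to 29.7 CPM and then 1.85 to 4.05 CPM with RA (interaction -4.89). Cyp26b1 (-4.89), the immune receptor Btla (-4.02) and Ebf1 (-3.95) were the others of the 5 lowest among genes with a mean of at least 5 CPM over the 12 libraries. The 5 highest in that range were Col12a1 (4.99), the endothelin receptor Ednrb (3.21), the neuronal vesicle protein Nsg2 (3.11), Cyp1b1 (3.06) and Hoxc5 (2.82). Hoxc5 did not exceed 0.66 CPM without RA and stood at 3.09 to 3.96 CPM and then 17.7 to 21.2 CPM with it.

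For Crabp1 and Zfp42 no difference was called. Crabp1 changed by 4.22 without RA and by 4.01 with it in the fit of 12 libraries, an interaction of -0.21 (SE 0.15, adjusted p = 0.35, edgeR), and Zfp42 had an interaction of 0.15 (SE 0.15, adjusted p = 0.5, edgeR). Sox1 stood at 28 to 30 CPM at 18 h with RA and 160.3 to 177 CPM at 42 h, above the untreated organoids at both times, and its interaction was -1.47 (SE 0.20, adjusted p = 6.3e-05, edgeR).

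**Figure D5:**
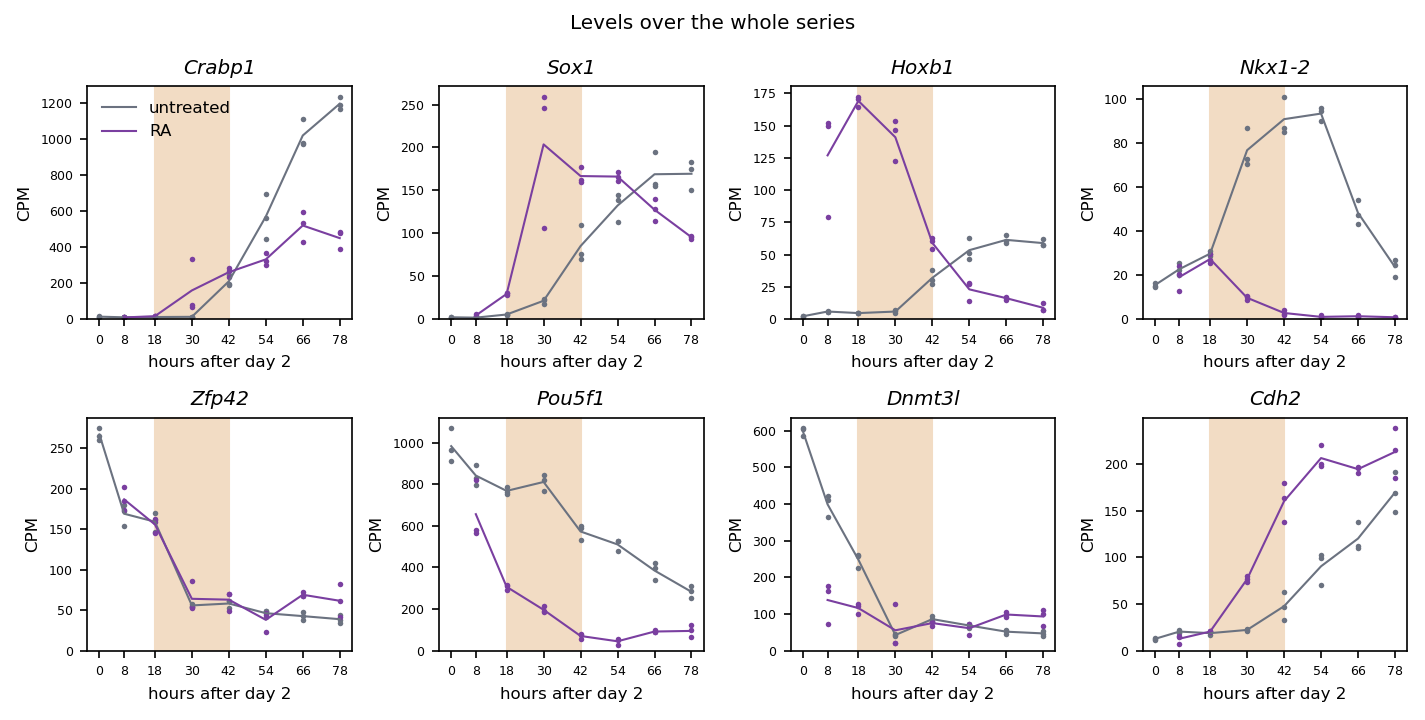
CPM of 8 genes (vertical axes) against hours after day 2 in untreated and RA-treated organoids, with 1 point per library, lines through the means and the interval from 18 h to 42 h shaded. Crabp1 was at 11.3 CPM at 18 h and 12.5 CPM at 30 h in the untreated means and at 209 CPM at 42 h, whereas Hoxb1 with RA was at 169 CPM at 18 h. The untreated libraries of 30 h, RA 30 h replicates 1 and 3 and RA 8 h replicate 3 stood apart in their Y-linked genes.

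Over the rest of the untreated series, the means of Crabp1 were 569, 1019 and 1195 CPM at 54, 66 and 78 h, and those of Sox1 were 132, 169 and 169 CPM. Zfp42 had 267 CPM at day 2, 159 CPM at 18 h, 58.1 CPM at 42 h and 38.8 CPM at 78 h, and Pou5f1 had 984, 769, 573 and 283 CPM at those times. Nkx1-2 was at 93.4 CPM at 54 h and at 23.6 CPM at 78 h. At 30 h, where the libraries stand apart, Dnmt3l was at 42.5 CPM, against 248 CPM at 18 h and 85.9 CPM at 42 h.

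The size of the change was not equal in the 3 libraries of 42 h. Of the 803 genes that rose, 485 (60.4%) were highest in 42 h replicate 2. Of the 646 that fell, 333 were lowest in that replicate. The medians of all tested genes by chromosome ran from -0.06 on chromosome 19 to 0.14 on chromosome 14 for autosomes and 0.02 for the X chromosome, against -0.82 for the 8 tested genes of the Y chromosome, of which 2 were called lower.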

How the data were processed

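Poly(A) RNA of organoids was sequenced from directional libraries. Per the study's methods and the submitters' processing notes, the authors trimmed reads with Trim Galore 0.5.0, removed abundant sequences with Bowtie2 2.3.4.1, aligned to GRCm38 and counted per gene with featureCounts (Subread 1.6.2). The deposited values are raw counts, 1 column per library. The strand setting and the treatment of reads with several matches are not given in the sources used here, which can affect overlapping genes, pseudogenes and gene copies.

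Groups, times and replicate numbers came from the labels, which call the replicates biological. The 3 libraries of each time were compared in edgeR 4.0.16 (R 4.3.3) with TMM factors, a minimum count of 10 and total of 15 (filterByExpr), the quasi-likelihood test and Benjamini-Hochberg adjustment over all 16318 genes tested. Calls needed a log2 fold change beyond 1 with an adjusted p under 0.01. SE is the log2 fold change divided by the square root of F. The interaction was fitted on 12 libraries. Totals of 23250799 to 39688686 counts per library set the precision of low genes. The steps were tested on simulated data, where edgeR recovered 100% of 200 genes changed by a log2 fold change of 2 in the time comparison, with 1 false call. The 200 genes were drawn from those with a mean above 5 CPM, so smaller changes and changes in lower genes were not simulated. In the data, 321 called rises and 258 called falls had a mean of at least 5 CPM. The median log2 fold changes of all called rises and falls were 1.45 and -1.36.

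Genes were named by rule: the 10 largest rises and falls among called genes of at least 5 CPM, the 5 largest gains and losses in CPM, the called members of gene lists with the largest change, genes that the study stained or discussed, and the 5 highest and lowest interactions among genes with a mean of at least 5 CPM over the 12 libraries. Members not called, and those past the first 6 of a list, were added after their values were seen. Members and lists were chosen with earlier results of these data known. Positions and biotypes came from GENCODE on GRCm38 and upstream sequence from RefSeq (GRCm38.p6). Alternatives were other scalings, filters, thresholds, DESeq2 1.42.0, a fit of all 45 libraries, a replicate block and each library left out in turn. Some genes are not reported here.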

Additional observations from a re-analysis of the deposited data

Results flagged for a closer look

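The change from 18 h to 42 h differed between RA-treated and untreated organoids for 897 genes, by a test of the difference itself (the interaction of time and RA in edgeR, adjusted p under 0.01 and a difference beyond 1 on the log2 scale).

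Among genes with a mean of at least 5 CPM over the 12 libraries, the RA change exceeded the untreated change most for Col12a1 (4.99), a collagen, Ednrb (3.21), Nsg2 (3.11), Cyp1b1 (3.06) and Hoxc5 (2.82). The untreated change exceeded the RA change most for Nkx1-2 (-4.89), Cyp26b1 (-4.89), Hoxb1 (-4.29), Btla (-4.02) and Ebf1 (-3.95). Col12a1 stood at 0.32 to 0.587 CPM and then 0.314 to 0.456 CPM without RA, with overlapping groups, and at 0.868 to 1.36 CPM and then 26 to 34.4 CPM with RA. Ebf1, a factor of neuronal differentiation, stood at 10.1 to 13 CPM and then 14.7 to 17.6 CPM without RA and at 7.99 to 9.32 CPM and then 0.344 to 1.26 CPM with it. Btla stood at 8.46 to 9.02 CPM and then 9.45 to 12.8 CPM without RA and at 1 to 1.82 CPM and then 0.0466 to 0.197 CPM with it.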

How the results depend on the processing

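The counts of 803 genes higher and 646 lower stayed within 1.5 times of these under other scalings, filters and tools, with 782 and 678 by RLE size factors, 853 and 594 by library totals, 745 and 615 by DESeq2, 833 and 597 in a fit of all 45 libraries, 906 and 779 without a filter on low counts and 639 and 532 when every library had to hold 10 counts. The threshold set the count. At an adjusted p under 0.05 with no minimum fold 3918 genes were higher and 3396 lower, and 197 and 100 passed a test against a log2 fold change of 1 (glmTreat). With single libraries left out, 663 to 811 were higher and 490 to 659 lower, and the interaction gave 768 to 881 genes in place of 897.

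The deviations of same-numbered replicates of 18 h and 42 h correlated with r of -0.26, -0.14 and 0.23. Pairs of unlike number had r of -0.33 to 0.40. With so few libraries a time these values cannot show whether replicates of the same number shared a culture. With a replicate block 742 genes were higher and 577 lower, and the interaction gave 801.

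Each named gene was followed through 12 alternatives: other scalings, DESeq2, the fit of all 45 libraries, no filter, the replicate block and each library left out. Of 150 called genes named here, 122 kept direction and call under all 12 and none changed direction. The other threshold, the test against a log2 fold change of 1 and the filter of 10 counts in every library were not among the 12. DESeq2 lost 4 of the calls, the replicate block 2 and the fit of all 45 libraries 10, and leaving out 42 h replicate 2 lost 15, the most of any library. Genes that were not called and stood near 0 changed sign when some libraries were left out, and the cause was not tested. With 1 library left out, the log2 fold change lay between -0.085 and 0.102 for Lama5, -0.038 and 0.202 for Lamb1, -0.0065 and 0.246 for Lamc1, -0.188 and 0.0954 for Rock1, -0.087 and 0.142 for Vim, -0.037 and 0.425 for Lhx2 and -0.439 and 0.0072 for Col12a1. With 3 libraries a time, genes of a few counts have wide errors, and counts near 0 at 18 h allow no ratio.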
